A study of Mus musculus with 6 samples.

Results

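This report covers 10 genes of the CXC chemokine system in mouse myeloid-derived suppressor cells (MDSCs), immature myeloid cells that restrain T cells. They are the neutrophil-attracting ligands Cxcl1, Cxcl2, Cxcl3 and Cxcl5, the interferon-induced ligands Cxcl9 and Cxcl10, the platelet-type ligands Pf4 and Ppbp, the membrane-bound ligand Cxcl16, and the receptor gene Cxcr2. The genes were chosen by symbol, and each matched 1 row of the 24312 in the authors' deposited table. Of the 10, 9 were marked as tested and Cxcl9 was not.

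The knockout cells came from Pim1-/- mice, which lack the cytokine-induced serine/threonine kinase Pim1, and the comparison cells from C57BL/6 wild-type mice. The strain label is C57BL/6 for both genotypes. Femoral marrow was cultured over 7 days in 40 ng/mL GM-CSF plus 40 ng/mL IL-6, so every library comes from cells exposed to both cytokines. The cells are labelled CD11b+ Gr1+, and each genotype had 3 libraries, which the design text calls biological replicates. The sources used here state neither the age and sex of the mice nor which part of Pim1 was deleted, and p-values measure only the spread between these libraries.

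Chemokines are small secreted proteins that guide leukocytes along gradients by binding G protein-coupled receptors. The CXC ligands with a glutamate-leucine-arginine motif before the first cysteines, among them Cxcl1, Cxcl2, Cxcl3, Cxcl5 and processed Ppbp, bind Cxcr2 and draw neutrophils and granulocytic MDSCs out of marrow and into inflamed or tumour tissue. Cxcl9 and Cxcl10 lack that motif, are induced by interferons and attract activated T cells and NK cells through Cxcr3.

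The authors' deposited table holds 1 pooled value per gene and genotype, read here as FPKM (fragments scaled by transcript length and library size), so values compare per length between genes and carry no spread between libraries. A gene is called where the deposited adjusted p is under 0.05. The error given beside a log2 fold change (Pim1 knockout over wild type) is that fold change over its deposited test statistic, in absolute size. Pim1 itself fell to 22.7 FPKM in Pim1 knockout, against 90.2 FPKM in wild type. Its adjusted p of 0.000831 is the smallest value the authors' deposited table gives and is shared by 667 genes, so it does not rank them. Depth per library is unknown, and the values summed to 786072 in Pim1 knockout and 780671 in wild type. Itgam, which encodes CD11b, was at 151.8 in Pim1 knockout and 138.8 in wild type. Ly6c2, part of the Gr1 antigen, rose to 997.1 in Pim1 knockout, against 392.4 in wild type. Ly6g was listed with them but matched no row by symbol, so it has no value here. Of 12 tested genes listed as neutrophil markers, Cxcr2 among them, 9 rose and 0 fell (median log2 fold change 1.10). Mmp8, Retnlg and Cxcr2 were not called, and the maturity of the cells was not tested. The 12 genes summed to 9517 FPKM in Pim1 knockout and 2546 FPKM in wild type. Most of that sum was S100a8 (6257 in Pim1 knockout, 1308 in wild type) and S100a9 (2029 in Pim1 knockout, 369.3 in wild type). Of 8 tested monocyte markers 3 rose and 2 fell, with a sum of 1815 FPKM in Pim1 knockout and 1525 FPKM in wild type. Over all tested genes 6.79% were called higher and 6.73% lower. Markers of macrophages summed to 5225 FPKM in Pim1 knockout and 4577 FPKM in wild type, and those of T cells and NK cells to 1.39 FPKM in Pim1 knockout and 1.26 FPKM in wild type. Those of dendritic cells summed to 2923 FPKM in Pim1 knockout and 4096 FPKM in wild type, most of it Cd74 (1990 in Pim1 knockout, 2629 in wild type). Of 6 tested dendritic cell markers 1 rose and 3 fell. Flt3, Zbtb46, Xcr1 and Siglech were under 1 FPKM in both genotypes and not tested. The Y-linked genes Ddx3y, Eif2s3y, Kdm5d and Uty lay between 0 and 0.0191 in Pim1 knockout and between 0.454 and 6.79 in wild type, while Xist was at 7.21 in Pim1 knockout and 5.21 in wild type. Kdm5d and Uty were not tested; Ddx3y and Eif2s3y were not called by the deposited adjusted p but were called when their test statistics were taken as standard normal values. Genotype and the sex makeup of the libraries therefore cannot be told apart in any value below.

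Of the 9 tested CXC genes, 4 fell and 1 rose in Pim1 knockout. Cxcl1, Cxcl2, Cxcl3 and Cxcl16 fell, Cxcl10 rose, and Cxcl5, Pf4, Ppbp and Cxcr2 were not called. In all, 13.5% of the 11079 tested genes of the authors' deposited table were called, 6.73% lower and 6.79% higher in Pim1 knockout. The median log2 fold change of the 9 tested members was -0.80, against 0.01 over all tested genes. Pooled RNA cannot separate fewer cells of a type from less RNA per cell. The printed errors are wider than those behind the calls for most genes. With each statistic taken as a standard normal value under them (the wider-error test), 3.31% of 11049 genes were called. Among the members 3 fell and 1 rose, and Cxcl2 was the member lost (adjusted p = 0.0564 from the statistics of the authors' deposited table).

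**Figure D1:**
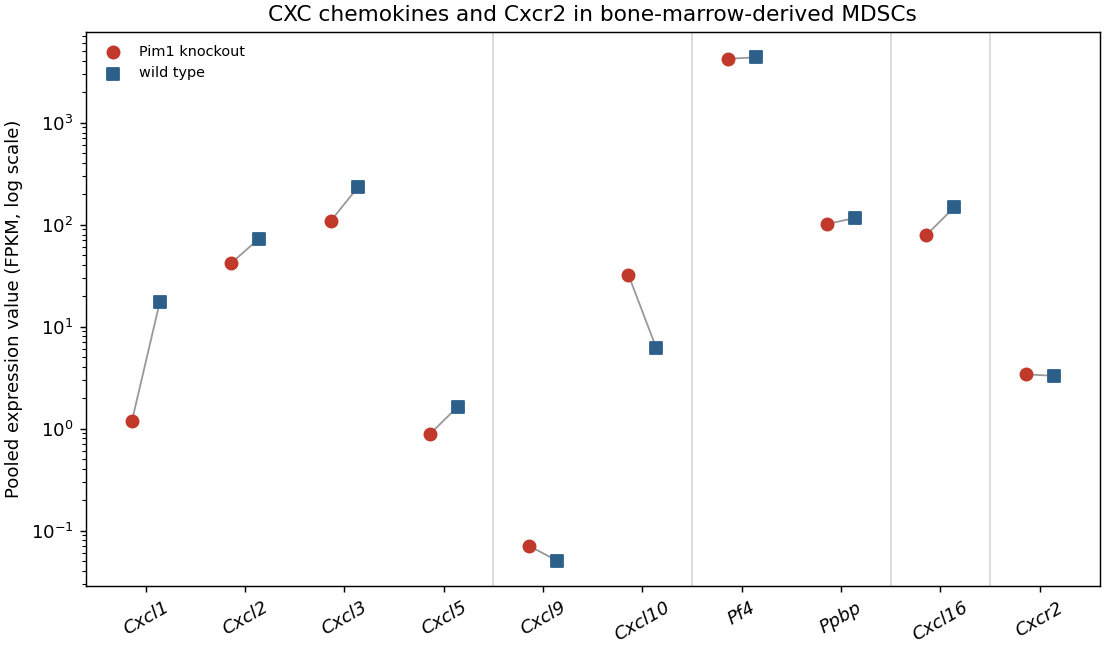
Pooled expression of the 10 genes on a log axis in FPKM, with Pim1 knockout as red circles and wild type as blue squares, grouped by role. Cxcl1, Cxcl2, Cxcl3 and Cxcl16 are lower in Pim1 knockout, Cxcl10 is higher, and Pf4 stands far above the rest at 4234 in Pim1 knockout and 4360 in wild type. There are no error bars because each point is 1 pooled value.

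The order of the levels differed between the genotypes. In Pim1 knockout it ran from Pf4 (4234) through Cxcl3 (108.1), Ppbp (101.4), Cxcl16 (79.3), Cxcl2 (42.0), Cxcl10 (32.1), Cxcr2 (3.41), Cxcl1 (1.19) and Cxcl5 (0.883) to Cxcl9 (0.0706 FPKM). In wild type it ran from Pf4 (4360) through Cxcl3 (235.6), Cxcl16 (147.6), Ppbp (116.2), Cxcl2 (73.1), Cxcl1 (17.4), Cxcl10 (6.16), Cxcr2 (3.29) and Cxcl5 (1.64) to Cxcl9 (0.0507 FPKM). Cxcl1 thus stood below Cxcl10 and Cxcr2 in Pim1 knockout and above both in wild type. With no spread between libraries, neighbours in either order cannot be said to differ. Without Pf4, the other 9 genes summed to 368.4 FPKM in Pim1 knockout and 601.1 FPKM in wild type.

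Of the 4 neutrophil-attracting ligands, 3 fell, beside 6.73% called lower over all tested genes. The largest of these changes was that of Cxcl1, the mouse KC chemokine, which fell to 1.19 FPKM in Pim1 knockout, against 17.4 FPKM in wild type. The authors' deposited table gives this as 14.6-fold lower, which is -3.87 as log2 fold change (error 0.54, adjusted p = 0.000831). Only 13 of the 11049 tested genes with a finite fold change had one as low as that of Cxcl1, counting Cxcl1 itself. By level Cxcl1 held rank 9714 of all 24312 rows in Pim1 knockout, counted from the highest, and rank 3545 in wild type.

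Cxcl3, the most abundant of the 4, fell to 108.1 FPKM in Pim1 knockout, against 235.6 FPKM in wild type (log2 fold change -1.12, error 0.24, adjusted p = 0.000831 by the authors' deposited table). Cxcl2, the macrophage inflammatory protein MIP-2, fell to 42.0 FPKM in Pim1 knockout, against 73.1 FPKM in wild type (log2 fold change -0.80, error 0.26, adjusted p = 0.000831 by the authors' deposited table). Cxcl5, a ligand made by epithelial cells among others, was low, at 0.883 FPKM in Pim1 knockout and 1.64 FPKM in wild type. Its log2 fold change of -0.89 had an error of 0.56 and missed the threshold in the authors' deposited table (adjusted p = 0.0541).

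Together the 4 ligands summed to 152.1 FPKM in Pim1 knockout and 327.8 FPKM in wild type. Cxcl3 made up 71.1% of that sum in Pim1 knockout and 71.9% in wild type, and Cxcl2 made up 27.6% in Pim1 knockout and 22.3% in wild type. Cxcl1 made up 0.783% in Pim1 knockout and 5.31% in wild type. Cxcl3 stood 90.7-fold above Cxcl1 in Pim1 knockout and 13.5-fold above it in wild type, whereas Cxcl3 over Cxcl2 was 2.58 in Pim1 knockout and 3.22 in wild type. The lower sum of the ligands stood beside a summed level of the listed neutrophil markers, mostly S100a8 and S100a9. That level was 9517 FPKM in Pim1 knockout and 2546 FPKM in wild type, and its part in the lower ligand sum was not tested. The difference between the fold changes of Cxcl1 and of the other ligands was not tested. Of the 986 runs of 31 bases in protein-coding Cxcl3 transcripts, 80 also occur in Cxcl2, which is 8.11% of Cxcl3 and 4.30% of Cxcl2, so some reads could have been split between this pair. Cxcl1 shared 0 such runs with any other gene of GENCODE M21.

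**Figure D2:**
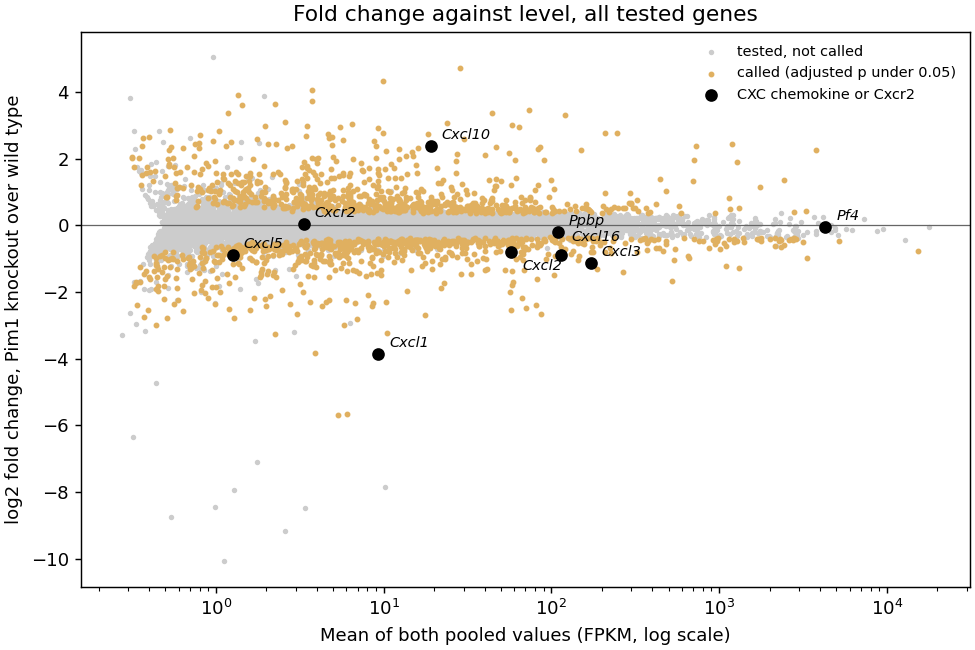
Log2 fold change (Pim1 knockout over wild type) against the mean of both pooled FPKM values (log axis) for tested genes with a finite fold change: grey not called, orange called, black the 9 tested CXC genes. Cxcl1 (-3.87) and Cxcl10 (2.38) lie far from the line at 0, Cxcl3, Cxcl16 and Cxcl2 lie below it, and Pf4 lies on it at the upper end of the levels.

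These ligands lie close together. In the coordinates of the authors' deposited table the cluster runs from the start of Cxcl5 at 91188324 to the end of Cxcl2 at 91334964 on chromosome 5, a span of 146.6 kb. The order is Cxcl5, Ppbp, Pf4, Cxcl3, Cxcl15, Cxcl1 and Cxcl2. The 3 ligand genes that were not called come before the 3 that fell in this order. Cxcl3, which fell, lies nearer to them than to Cxcl1: Pf4 ends 12.7 kb before Cxcl3 starts, Cxcl3 starts 26.8 kb and Cxcl1 starts 131.9 kb from the start of Cxcl5, and Cxcl1 ends 10.8 kb before Cxcl2 starts. Cxcl15, a chemokine known from lung, was listed at 0 in Pim1 knockout and 0.0288 in wild type and was not tested. Beyond Cxcl2 lies Mthfd2l, a mitochondrial folate enzyme gene named here for its position, which fell to 0.717 FPKM in Pim1 knockout, against 1.32 FPKM in wild type (adjusted p = 0.0450 by the authors' deposited table, 0.752 by the wider-error test). Cxcl9 starts 1415 kb past the end of Cxcl2. The submitters' processing notes name mm10, but these coordinates do not match that build. In GENCODE M21, which is on mm10, 0 of the 10 loci overlapped their own gene. Of 23180 symbols matched over the whole table, 99.5% lay on the same chromosome but only 12.8% overlapped. Which build the coordinates belong to is not stated.

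**Figure D3:**
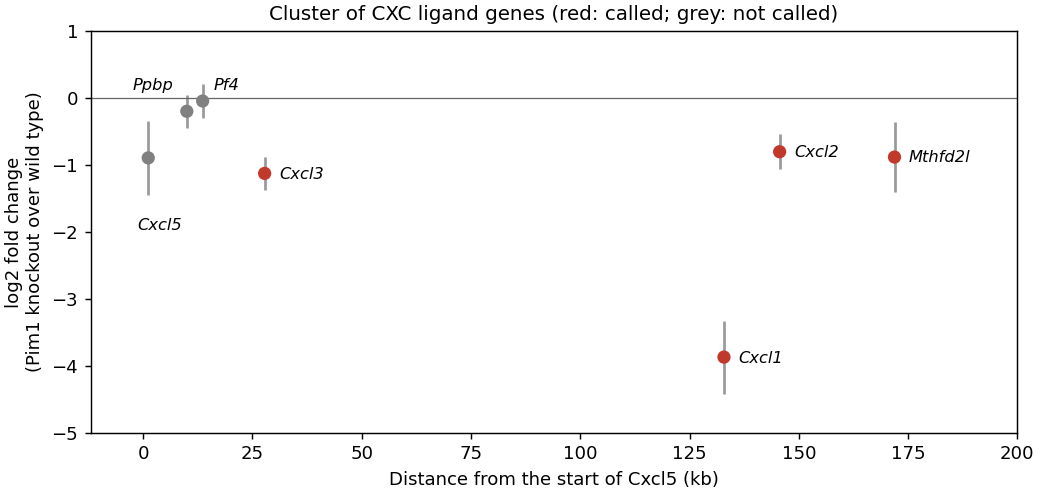
Log2 fold change (Pim1 knockout over wild type, bars 1 error as defined in the text) of the tested genes of the chromosome 5 ligand cluster against distance from the start of Cxcl5 in kb; Mthfd2l is placed at its start. Ppbp and Pf4, at -0.20 and -0.04, stand between Cxcl5 and Cxcl3, which are at -0.89 and -1.12, and Cxcl1 stands lowest at -3.87.

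The promoters of the 3 called ligands of the cluster are shown because these genes moved together. Promoter windows from RefSeq (build GRCm38.p6, 250 bases before to 50 after the gene's start) matched 8 of the 10 members; Cxcl5 and Cxcl16 were not matched. The last 150 bases of each window follow, all on the plus strand of chromosome 5: Cxcl1 at chr5:90891145-90891294, Cxcl2 at chr5:90903799-90903948 and Cxcl3 at chr5:90786001-90786150. Capitals mark the exact letters GGAATTTCC, a form of the NF-kB motif, searched on both strands. Other forms of the motif were not searched.
Cxcl1: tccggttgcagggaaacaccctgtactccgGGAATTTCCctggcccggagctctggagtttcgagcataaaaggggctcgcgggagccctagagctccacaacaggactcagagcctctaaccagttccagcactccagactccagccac
Cxcl2: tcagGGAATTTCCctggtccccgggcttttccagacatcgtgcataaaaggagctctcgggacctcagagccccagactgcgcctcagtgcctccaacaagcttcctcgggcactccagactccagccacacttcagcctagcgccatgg
Cxcl3: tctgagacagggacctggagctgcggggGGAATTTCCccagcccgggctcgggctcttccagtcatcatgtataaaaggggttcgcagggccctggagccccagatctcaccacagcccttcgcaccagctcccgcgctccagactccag

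Each of the 3 windows held the motif once, beginning at position -70 in Cxcl1, -96 in Cxcl2 and -72 in Cxcl3, counted from the gene's start. Of all 32851 promoter windows, 104 (0.317%) held these letters. That share is low in part because the spelling was fixed, with no open positions, and the difference from it was not tested. The windows of Pf4, Ppbp, Cxcr2 and Cxcl9 held no match to these exact letters. That of Cxcl10, which rose, held 1 such match, on the opposite strand. Other spellings of an NF-kB site were not counted in any window. These letters are thus not particular to the ligands that fell. A match describes the letters of the window and says nothing of binding in these cells.

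The messages of the same ligands carry AU-rich pentamers (ATTTA), a class of element through which inflammatory mRNAs are degraded. In GENCODE M21, Cxcl1 had 7 in a 3′ untranslated region (UTR) of 592 bases, Cxcl2 had 11 in 734 bases and Cxcl3 had 5 in 645 bases. Per kb this is 11.8, 15.0 and 7.75 pentamers, against a median of 1.29 per kb over 9976 tested genes with a UTR of at least 50 bases. Of those genes 0.591% had as many per kb as Cxcl1, 0.221% as many as Cxcl2 and 2.10% as many as Cxcl3. By count alone, without regard to length, the shares were larger: 11.9% of those genes had as many pentamers as Cxcl1, 4.45% as many as Cxcl2 and 19.9% as many as Cxcl3. Cxcl5 had 4.50 per kb, Cxcl10 had 2.74, and Cxcl9, Ppbp, Cxcl16 and Cxcr2 had 1.10 to 1.52, whereas the 8.13 of Pf4 rests on 1 pentamer in 123 bases. The 26-base stretch with the most pentamers is given for each of the 3, with the pentamers in capitals, at chr5:90892606-90892631, chr5:90905327-90905352 and chr5:90787633-90787658 of GRCm38 (plus strand).
Cxcl1: gtcctATTTATTTAtgtATTTATTTA
Cxcl2: tATTTATTTAtctatgtATTTATTTA
Cxcl3: atggcatcttATTTAatgtttATTTA

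The stretches of Cxcl1 and Cxcl2 each held 4 pentamers and that of Cxcl3 held 2.

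**Figure D4:**
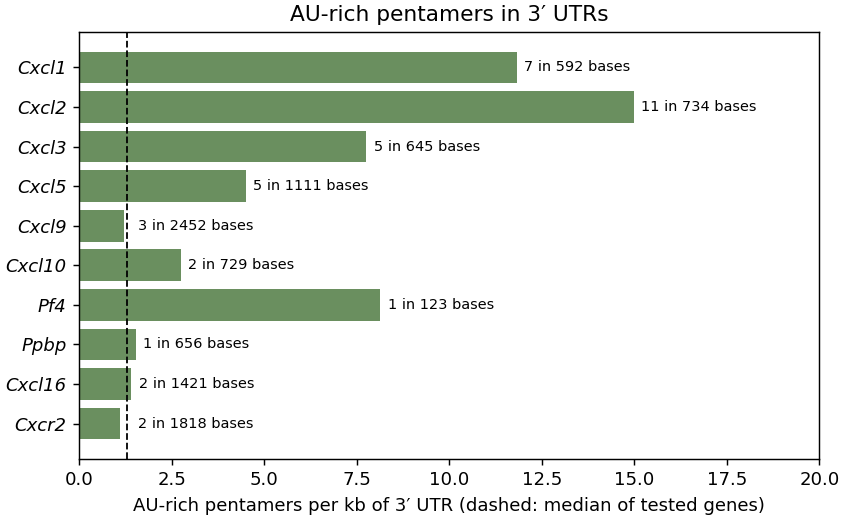
AU-rich pentamers per kb of 3′ UTR for the 10 genes, with the count and UTR length beside each bar; the dashed line is the median of tested genes, 1.29 per kb. Cxcl2, Cxcl1, Pf4 and Cxcl3 are highest, and the bar of Pf4 rests on 1 pentamer.

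Genes that commonly rise with these ligands in activated myeloid cells divided. Of 14 tested inflammatory genes, 6 fell and 3 rose in Pim1 knockout, with a median log2 fold change of -0.29. Over all tested genes 6.73% were called lower and 6.79% higher, and the difference from these shares was not tested. By the wider-error test 2 of the 14 were called, Il1a and Il1b, beside 3.31% over all genes in that test. The interleukin-1 genes fell: Il1b was at 40.3 FPKM in Pim1 knockout, against 123.2 FPKM in wild type, and Il1a was at 22.7 FPKM in Pim1 knockout, against 57.6 FPKM in wild type (adjusted p = 0.000831 each by the authors' deposited table). Il6, the cytokine also added to the cultures, fell to 2.26 FPKM in Pim1 knockout, against 5.30 FPKM in wild type (adjusted p = 0.000831 by the authors' deposited table). The interleukin-1 receptor antagonist gene Il1rn (124.7 in Pim1 knockout, 181.4 in wild type) and Tnfaip2 (48.5 in Pim1 knockout, 71.9 in wild type) also fell. In the other direction Ccl4, a chemokine of the CC class, rose to 431.6 FPKM in Pim1 knockout, against 303.0 FPKM in wild type (adjusted p = 0.00223 by the authors' deposited table). Tnf, named after its value was seen, rose as well, to 31.9 FPKM in Pim1 knockout, against 22.0 FPKM in wild type (adjusted p = 0.00561 by the authors' deposited table).

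Of 20 tested NF-kB subunits, kinases and inhibitors, 1 fell and 0 rose, beside the 13.5% called over all tested genes, with a median log2 fold change of -0.14. The member that fell was Relb, a subunit of the non-canonical pathway, at 16.1 FPKM in Pim1 knockout and 22.0 FPKM in wild type (adjusted p = 0.0234 by the authors' deposited table), and 0 of the 20 were called by the wider-error test. Of 14 tested factors that govern the decay or stability of AU-rich mRNA, 3 fell and 0 rose, and by the wider-error test 2 were called. Over all tested genes 6.73% were called lower, and 3.31% were called by the wider-error test. The difference from these shares was not tested. Zfp36, which encodes tristetraprolin, a protein that binds AU-rich elements and speeds decay, fell to 105.8 FPKM in Pim1 knockout, against 227.0 FPKM in wild type (log2 fold change -1.10, error 0.24, adjusted p = 0.000831 by the authors' deposited table). Dusp1, a phosphatase that turns off p38, fell to 20.8 FPKM in Pim1 knockout, against 42.0 FPKM in wild type (adjusted p = 0.000831 by the authors' deposited table). Zc3h12a, which encodes the ribonuclease Regnase-1, fell to 3.37 FPKM in Pim1 knockout, against 4.94 FPKM in wild type (adjusted p = 0.0234 by the authors' deposited table). Falls of decay factors and of ligands stood side by side, and no link between them was tested.

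Of the interferon-induced ligands, Cxcl10 rose and Cxcl9 was barely measured. Cxcl10, also known as IP-10, rose to 32.1 FPKM in Pim1 knockout, against 6.16 FPKM in wild type. This is 5.21-fold higher, or 2.38 as log2 fold change (error 0.33, adjusted p = 0.000831 by the authors' deposited table), and 58 of the 11049 tested genes had one as high, counting Cxcl10. Cxcl9, which depends more on interferon gamma, was at 0.0706 FPKM in Pim1 knockout and 0.0507 FPKM in wild type and is marked as not tested. Cxcl11, the other ligand of Cxcr3, shares with Cxcl10 a locus at 92760867 to 92843653 on chromosome 5 in the table's coordinates and was at 0.210 FPKM in Pim1 knockout and 0.0486 FPKM in wild type, not tested. In Pim1 knockout Cxcl10 stood 26.9-fold above Cxcl1, whereas in wild type Cxcl1 stood 2.83-fold above Cxcl10.

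The promoter of Cxcl10 is shown whole because it carries both motifs searched. It spans chr5:92348840-92349139 (RefSeq, GRCm38.p6, minus strand, printed in the direction of the gene). The capitals nearer the 5′ end mark the interferon-stimulated response element GAAANNGAAA. Those nearer the 3′ end mark the NF-kB letters GGAATTTCC read on the opposite strand, and other forms of that motif are not marked.
Cxcl10: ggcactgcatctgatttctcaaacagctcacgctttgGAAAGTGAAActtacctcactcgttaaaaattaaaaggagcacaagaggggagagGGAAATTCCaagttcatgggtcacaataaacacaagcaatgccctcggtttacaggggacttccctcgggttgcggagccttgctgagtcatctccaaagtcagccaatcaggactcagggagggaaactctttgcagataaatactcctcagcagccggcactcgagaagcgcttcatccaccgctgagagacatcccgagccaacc

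The interferon motif begins at position -213 and the NF-kB motif at position -158 from the gene's start, and they do not overlap. The interferon motif, searched on both strands, was found in 1131 of 32851 windows (3.44%) and in no other of the 8 matched members' windows, that of Cxcl9 included.

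Of 16 tested genes that act upstream of Cxcl9 and Cxcl10, 6 rose and 0 fell in Pim1 knockout, with a median log2 fold change of 0.25. Over all tested genes 6.79% were called higher, and the difference from that share was not tested. Irf7, an amplifier of type I interferon, was at 42.5 FPKM in Pim1 knockout and 5.07 FPKM in wild type. The transcription factor genes Stat2 (10.8 in Pim1 knockout, 4.40 in wild type) and Irf9 (25.6 in Pim1 knockout, 16.2 in wild type) rose, as did the feedback inhibitor Socs1 (87.1 in Pim1 knockout, 51.4 in wild type). The authors' deposited table has 0.000831 as the adjusted p of each of these 4. The kinase Jak2 rose to 7.46 FPKM in Pim1 knockout, against 5.33 FPKM in wild type (adjusted p = 0.0180 by the authors' deposited table). By the wider-error test 3 of the 16 were called, beside 3.31% over all genes in that test. Irf7 and Stat2 were among the 3, and Irf9, Socs1 and Jak2 were not. Among the interferons themselves, Ifnb1 was at 0.122 in Pim1 knockout and listed at 0 in wild type, Ifng was listed at 0 in both, and neither was tested.

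The platelet-type ligands were not called. Pf4, platelet factor 4 or Cxcl4, a heparin-binding chemokine stored in platelet granules, was at 4234 FPKM in Pim1 knockout and 4360 FPKM in wild type (log2 fold change -0.04, error 0.25, adjusted p = 0.916 by the authors' deposited table). That placed it at rank 21 of all rows in Pim1 knockout and rank 16 in wild type. Ppbp, whose product is cleaved to the Cxcr2 ligand NAP-2, was at 101.4 FPKM in Pim1 knockout and 116.2 FPKM in wild type (log2 fold change -0.20, error 0.25, adjusted p = 0.447 by the authors' deposited table). Pf4 stood 41.7-fold above Ppbp in Pim1 knockout and 37.5-fold above it in wild type, and it made up 92.0% of the sum of the 10 genes in Pim1 knockout and 87.9% in wild type.

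Markers of platelets and megakaryocytes stood far below Pf4. Of 15 such markers, 12 were under 1 FPKM in both genotypes, and the glycoprotein genes Gp1bb, Gp5 and Gp9 and the multimerin gene Mmrn1 were listed at 0 in both. The platelet integrin gene Itga2b was at 0.0498 FPKM in Pim1 knockout and 0.113 FPKM in wild type. All 15 summed to 7.45 FPKM in Pim1 knockout and 22.3 FPKM in wild type. Of 3 tested, 2 fell and 0 rose, beside 6.73% called lower over all tested genes. The lectin receptor gene Clec1b, which myeloid cells can also express, fell to 1.74 FPKM in Pim1 knockout, against 12.1 FPKM in wild type (adjusted p = 0.000831 by the authors' deposited table), and Vwf fell to 4.50 FPKM in Pim1 knockout, against 7.25 FPKM in wild type (adjusted p = 0.000831 by the authors' deposited table, 0.142 by the wider-error test). Selp, the other tested marker, was at 0.585 FPKM in Pim1 knockout and 2.19 FPKM in wild type and was not called (adjusted p = 0.0690 by the authors' deposited table). Which cells made the Pf4 RNA was not tested.

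Cxcl16, a ligand made as a membrane protein that also takes up oxidized lipoprotein, fell to 79.3 FPKM in Pim1 knockout, against 147.6 FPKM in wild type. This is -0.90 as log2 fold change (error 0.25, adjusted p = 0.000831 by the authors' deposited table). Its locus, chromosome 11 from 70267736 to 70279701 in the table's coordinates, also holds Zmynd15, at 6.83 FPKM in Pim1 knockout and 12.9 FPKM in wild type (adjusted p = 0.191 by the authors' deposited table), and whether reads were counted by strand is not given. Of 3 tested genes listed for the shedding of Cxcl16 from the membrane, 0 were called, beside 13.5% over all tested genes. The sheddase gene Adam10 was the most abundant, at 27.7 FPKM in Pim1 knockout and 34.0 FPKM in wild type (adjusted p = 0.127 by the authors' deposited table). The receptor gene of Cxcl16, Cxcr6, was at 0.0666 FPKM in Pim1 knockout and 0.183 FPKM in wild type and was not tested.

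Cxcr2, the receptor through which the neutrophil-attracting ligands act, was at 3.41 FPKM in Pim1 knockout and 3.29 FPKM in wild type. Its log2 fold change of 0.05 had an error of 0.33 (adjusted p = 0.925 by the authors' deposited table). It lies on chromosome 1 from 74200568 to 74207820 in the table's coordinates. Cxcr1, its closest relative, was listed at 0 in both genotypes. Of the 12 listed neutrophil markers given above, 7 were called by the wider-error test, beside 3.31% over all genes in that test. The part of their shift in the value of Cxcr2 was not tested.

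Of 7 other CXC and decoy receptors with a row, 2 were tested, and 1 rose and 1 fell. Over all tested genes 6.79% were called higher and 6.73% lower. Cxcr4, which holds immature myeloid cells in marrow, rose to 5.85 FPKM in Pim1 knockout, against 2.97 FPKM in wild type, and the scavenging receptor gene Ackr3 fell to 0.621 FPKM in Pim1 knockout, against 3.34 FPKM in wild type (adjusted p = 0.000831 each by the authors' deposited table). The call of Cxcr4 was lost in the wider-error test (adjusted p = 0.145 from the statistics of the authors' deposited table). Cxcl12, the ligand of both, was at 0.00975 FPKM in Pim1 knockout and 0.00534 FPKM in wild type and was not tested. Among the 8 other chemokines listed, 2 were tested and 1 fell, beside the 6.73% called lower over all tested genes. The gene that fell was Cxcl14, at 1.54 FPKM in Pim1 knockout and 7.54 FPKM in wild type (adjusted p = 0.000831 by the authors' deposited table).

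Of 22 tested genes that carry or limit the signal of Cxcr2, 2 rose and 2 fell, a share near the 13.5% called over all tested genes, with a median log2 fold change of -0.04. Rgs18, a regulator that switches off G proteins, rose to 8.35 FPKM in Pim1 knockout, against 3.82 FPKM in wild type (adjusted p = 0.000831 by the authors' deposited table), whereas Rgs2 of the same family fell to 30.9 FPKM in Pim1 knockout, against 42.9 FPKM in wild type (adjusted p = 0.00452 by the authors' deposited table). Adrbk1, which encodes the receptor kinase GRK2, rose to 32.9 FPKM in Pim1 knockout, against 24.1 FPKM in wild type (adjusted p = 0.00919 by the authors' deposited table). The Src-family kinase gene Fgr fell to 37.7 FPKM in Pim1 knockout, against 52.2 FPKM in wild type (adjusted p = 0.00561 by the authors' deposited table). By the wider-error test 1 of the 22, Rgs18, was called, beside 3.31% over all genes in that test.

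**Figure D5:**
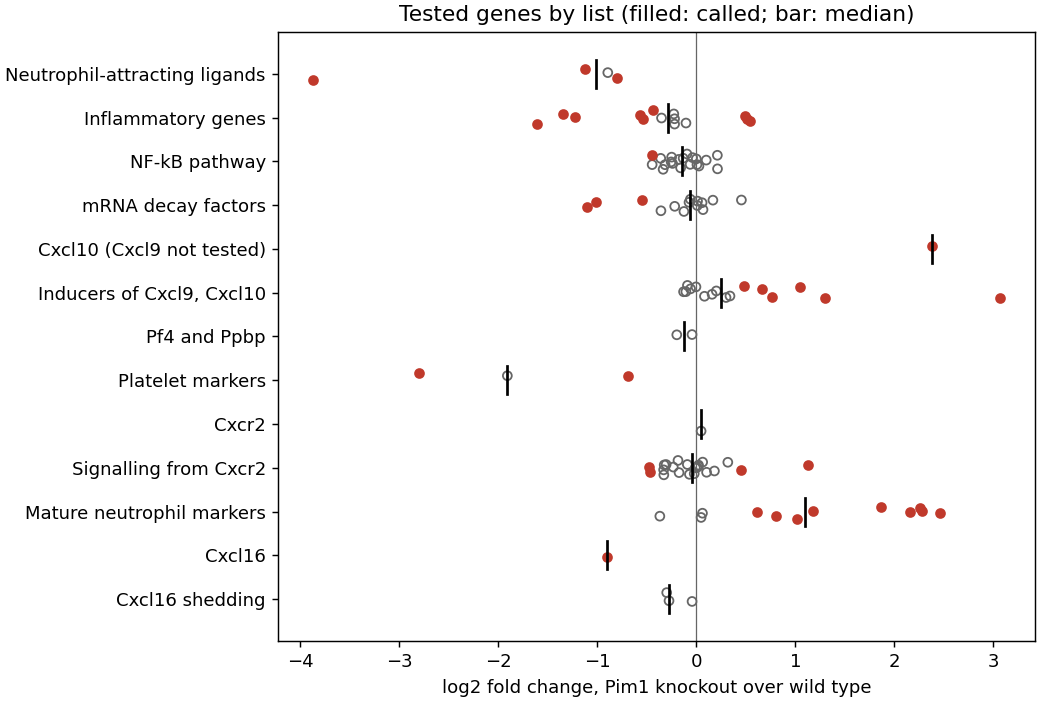
Log2 fold change (Pim1 knockout over wild type) of the tested genes of each list, 1 point a gene, filled red where called, with a bar at each list's median. The 4 neutrophil-attracting ligands (median -1.01) and the 3 tested platelet markers lie left of 0. Cxcl10 lies right of it, and so do most genes of the list labelled mature neutrophil markers (median 1.10).

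Over the 2 pooled values, the called genes with the fold change most like that of Cxcl1 were H2-Q10 (-3.25), H2-Q4 (-3.23) and C1s1 (-2.99), at distances of 0.62, 0.64 and 0.88 on the log2 scale. H2-Q10 and H2-Q4 are class I genes whose sequences closely resemble other family members, which makes their values uncertain. The genes most like Cxcl10 were Cmpk2 (2.38), Stat4 (2.38) and Ms4a6b (2.39), each within 0.01 on the log2 scale. Likeness over 2 values says no more than that these fold changes are alike.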

How the data were processed

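RNA of CD11b+ Gr1+ cells was sequenced in 3 Pim1 knockout and 3 wild-type libraries after a Smart-seq2 protocol, per the labels' protocols. The authors deposited 1 table of 24312 genes with pooled FPKM values; the unit was read from the column layout, which is that of Cuffdiff, and the header does not name it. Further columns, per the file headers, are the log2 fold change, the test statistic (a score), the p-value and the q-value of each gene. The q-values could be rebuilt to within 5.28e-07 by adjusting the p-values after Benjamini and Hochberg across 11079 rows that carry a test. Another 13227 rows were marked as not tested and 6 as too deeply covered. The submitters' processing notes name mm10, which the deposited coordinates did not match. The aligner is not given in the sources used here, nor is the annotation.

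Calls are the authors' own test across all genes (adjusted p under 0.05). The ratio of the normal deviate of a deposited p-value to the test statistic had a median of 1.74. For most genes the errors printed are thus wider than those behind the calls. The reverse held for Ddx3y and Eif2s3y, with deposited p-values of 0.132 and 0.243 at statistics of -5.09 and -3.83. The wider-error test adjusts normal p-values of the statistic over 11049 genes. The pooled table gives no values per library, so no spread between libraries and no counting interval is given. The members, the context lists and the rule for named genes (all members; up to 6 called genes a list by smallest adjusted p, or the most abundant where none was called; the 3 genes with a mean of at least 1 nearest to Cxcl1 and Cxcl10) were chosen with earlier results of these data known. Genes of marker lists, neighbours and genes listed as untested are named for their roles, and some genes of the lists are not reported by name here. The adjustment was run on simulated normal values drawn with the printed errors, which does not test the deposited calls. Promoters came from RefSeq and transcripts from GENCODE M21. Python 3.11.15, pandas 2.3.3, numpy 2.4.6, scipy 1.17.1 and matplotlib 3.10.9 were used.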

Additional observations from a re-analysis of the deposited data

How the results depend on the processing

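No paired analysis was possible because the deposited table pools the libraries of a genotype, and for the same reason leaving out each replicate was not run. Of 54 fold changes of the 9 tested genes, recomputed under 3 pseudocounts and 3 scalings, 50 moved by less than 1 error, and 0 called ones changed sign; that of Pf4, not called, was 0.02 when values were rescaled to equal sums. That of Cxcl1 was -3.07 once 1 was added to both values and -1.86 once 5 was added. At a pseudocount of 5 that of Cxcl5 was -0.17 and that of Cxcl10 was 1.73. That of Cxcl9 was 0.18, 0.027 and 0.0057 at pseudocounts of 0.1, 1 and 5. A pseudocount shrinks low values by construction and, added to both values, cannot change the sign of a fold change. The 3 scalings put the median log2 fold change over all tested genes between -0.0042 and 0.078, against 0.013 as deposited. Small moves under such mild scalings were largely set in advance.

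The count of members that fell stayed between 3 and 5 under the other call rules. It was 2, Cxcl1 and Cxcl3, where a log2 fold change of at least 1 was also asked for. The count that rose was 1 under every call rule. Cxcl5 was called at an adjusted p under 0.1, and a mean of at least 10 removed Cxcl1, Cxcl5 and Cxcr2 from the genes tested. Over all genes 366 passed the wider-error test, against 1498 by the deposited adjusted p; 973 passed at an adjusted p under 0.01, 715 with a mean of at least 10, where fewer genes were tested, and 475 with a log2 fold change of at least 1. Depth per library is unknown and cannot be used to set a detection limit for Cxcl9 or Cxcr2.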
